A study of Homo sapiens with 10 samples.

Results

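Methyl-CpG readers are proteins that bind DNA carrying methylated CpG sites, or that belong to the same families, and bring chromatin-modifying complexes to it. The genes described here are the 8 listed by name, *MBD1*, *MBD2*, *MBD3*, *MBD5*, *MBD6*, *ZBTB33*, *ZBTB4* and *ZBTB38*, of 58884 genes in the count tables. They were listed by name, with earlier results of these data known. All 8 were found by matching symbols to the Ensembl identifiers of the tables. RNA was measured by poly(A) RNA-seq in 6 libraries of HCT116 (replicates 1, 2, 3, 7, 8 and 9), a human colorectal carcinoma line given the genotype WT, and in 4 libraries of DNMT1 KO (replicates 1 to 4), a derivative of HCT116 in which *DNMT1*, the maintenance DNA methyltransferase gene, was targeted. According to the study, this derivative still makes a truncated DNMT1 at a reduced level, which makes it a hypomorph and not a null. Both lines grew in the same medium with no treatment, and each is a single established line. Batch 1 holds replicate 1 of each line, batch 2 holds replicates 2 and 3 of each line, batch 3 holds DNMT1 KO replicate 4 and batch 4 holds HCT116 replicates 7, 8 and 9.

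Proteins with a methyl-CpG binding domain (MBD) include MBD1 and MBD2, which bind methylated CpG, and MBD3, MBD5 and MBD6, which carry the domain but are known to bind methylated DNA weakly or not at all. MBD2 and MBD3 are alternative subunits of the NuRD complex, which joins nucleosome remodelling to histone deacetylation. MBD5 and MBD6 belong to PR-DUB, which removes ubiquitin from histone H2A. The zinc finger readers Kaiso (*ZBTB33*), ZBTB4 and ZBTB38 bind methylated DNA through zinc fingers and recruit corepressors through a BTB domain. DNMT1 copies methylation to new DNA strands, and its targeting in HCT116 is known to lower total methylation, the mark that MBD1, MBD2 and the zinc finger readers bind. According to the study, a subset of domains gains methylation in DNMT1 KO.

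Depth was 35418732 to 85991812 counts a library in HCT116, with batch 4 the deepest at 70201678 or more, and 26700853 to 55732013 counts in DNMT1 KO. *DNMT1* itself lay between 89.8 and 263.2 CPM (counts scaled to a common library total, here adjusted by TMM) in HCT116 and between 14.1 and 22.3 CPM in DNMT1 KO, a log2 fold change of -2.97 (SE 0.33, adjusted p = 1.74e-05, edgeR). The 5 epithelial markers examined summed to between 2500 and 6090 CPM in HCT116 and to between 611 and 1390 CPM in DNMT1 KO. Of markers of other cell types, 4 mesenchymal genes summed to 6.47 to 19.8 and 13.4 to 20.6 CPM, 4 leukocyte genes to 0.0279 to 0.309 and 1.65 to 2.47 CPM, and 3 endothelial genes to 0.107 to 0.743 and 3.35 to 5.61 CPM. *DCN* and *CD3E* were at 0 counts in all 6 HCT116 libraries. *PTPRC*, which marks leukocytes, had 2 counts in each line over all libraries. The part of these marker differences in the results below was not tested, and in bulk RNA fewer cells of a type and less RNA per cell cannot be told apart.

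None of the 8 reader genes passed the test between DNMT1 KO and HCT116 (edgeR's quasi-likelihood test, adjusted p under 0.05 over 19279 genes). An unadjusted p under 0.05 was found for 1 of 8 readers and for 5327 of the 19279 genes (edgeR). At an adjusted p under 0.05, 16.1% of all genes tested passed, 8.45% higher and 7.61% lower in DNMT1 KO. Of all genes tested, 13.9% passed with a log2 fold change above 1 or below -1. With DESeq2 and with a likelihood ratio test, 0 of 8 also passed. *ZBTB33* was the reader with the smallest p and was 1.56-fold higher in DNMT1 KO. The ranges of the lines overlapped for all 8 readers, whereas 15.2% of genes tested had ranges that did not overlap. Of the 8 log2 fold changes, 6 were positive and 2 negative, with a median of 0.12 beside -0.07 over all genes tested. Scaled by library totals alone instead of TMM, the median over all genes was 0.14, and 2303 genes passed higher and 1089 lower, against 1630 and 1468 with TMM, so differences of that size depend on the scaling.

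**Figure D1:**
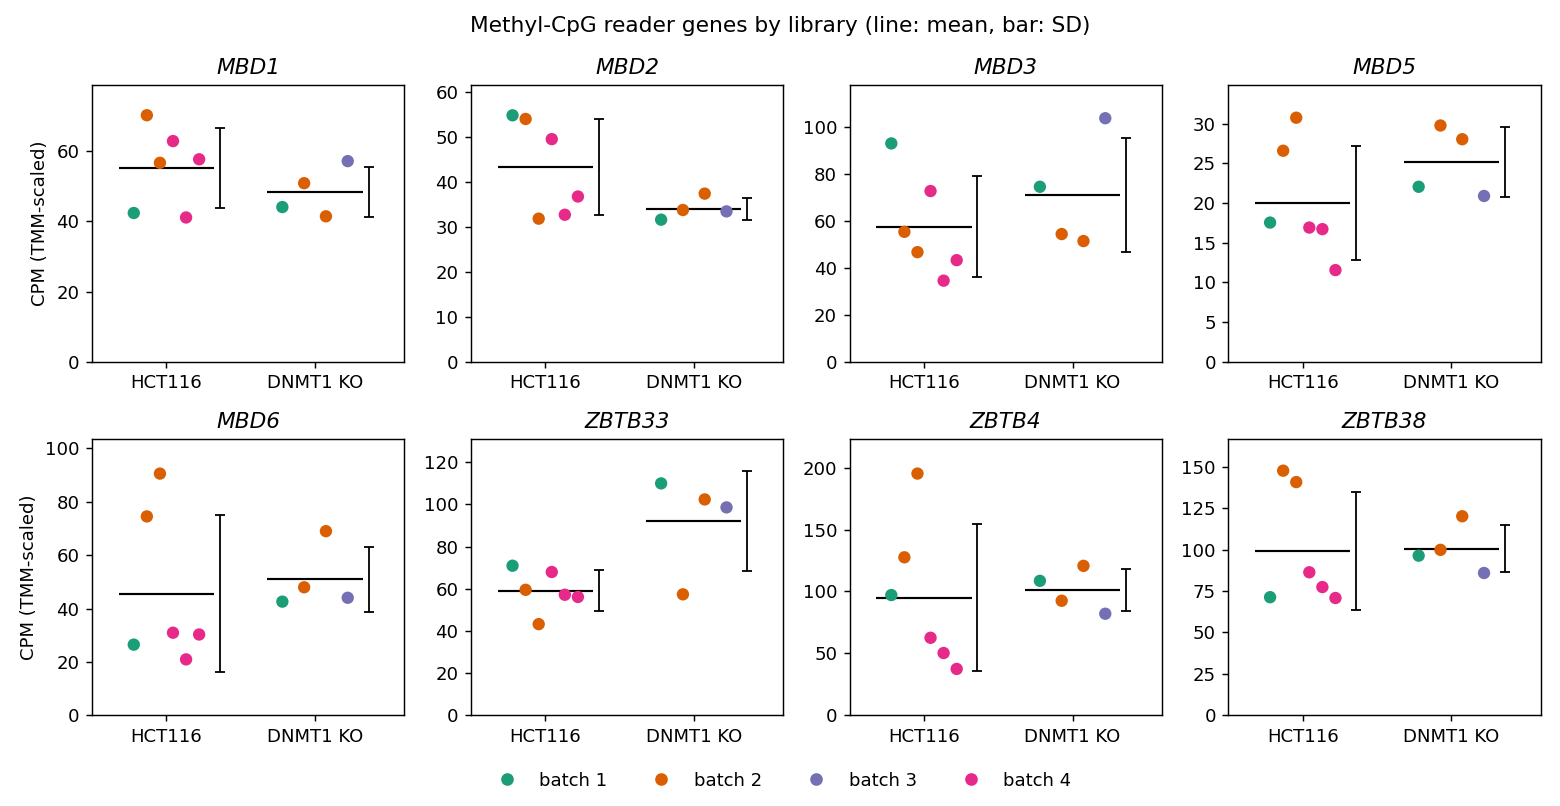
CPM on TMM-scaled totals (vertical axis, from 0) of each of the 8 reader genes in the 6 HCT116 and 4 DNMT1 KO libraries. Each point is a library coloured by batch, lines are group means and bars are SD. The 2 HCT116 libraries of batch 2 were the highest of their line for MBD5, MBD6, ZBTB4 and ZBTB38, and 3 of 4 DNMT1 KO libraries lay above every HCT116 library for ZBTB33.

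*ZBTB33* (ENSG00000177485; hg38 chrX:120250752-120258398, plus strand) encodes Kaiso, which binds methylated CpG pairs as well as an unmethylated sequence. Its CPM in DNMT1 KO was 110.0, 57.4, 102.4 and 98.6 in replicates 1 to 4. In HCT116 it ran from 43.3 to 71.0 CPM with a median of 58.4. Thus 3 DNMT1 KO libraries exceeded every HCT116 library, while DNMT1 KO replicate 2 lay inside the HCT116 range. The means were 92.1 ± 23.6 CPM (SD, n = 4) and 59.2 ± 9.83 CPM (SD, n = 6), a log2 fold change of 0.64 (SE 0.23), with an adjusted p of 0.0764 (edgeR). The log2 ratio was 0.63 in batch 1, with 1 library of each line, and 0.59 in batch 2. In batch 2, DNMT1 KO replicate 2 lay below HCT116 replicate 2 (59.5 CPM). With batch as a term the log2 fold change was 0.635 and did not pass (adjusted p = 0.143, edgeR). Within batch 2 alone it was 0.638 and did not pass either (adjusted p = 0.42, edgeR). The gene did pass with DNMT1 KO replicate 2 left out, at 0.81 (adjusted p = 0.0301, edgeR), and with library totals alone, at 0.85 (adjusted p = 0.014, edgeR), and its sign was positive under all 23 alternatives.

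*ZBTB4* (ENSG00000174282; hg38 chr17:7459366-7484263, minus strand) encodes a reader that can bind single methylated CpG sites. It had 108.6, 92.5, 120.7 and 82.1 CPM in DNMT1 KO. The HCT116 libraries ran from 37.5 to 195.2 CPM with a median of 79.9. All 4 DNMT1 KO libraries therefore fell inside the HCT116 range, and the log2 fold change was 0.09 (SE 0.39). This value turned negative within batch 2 (log2 ratio -0.58) and was positive in batch 1 (0.16).

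*ZBTB38* (ENSG00000177311; hg38 chr3:141324213-141449792, plus strand) encodes the zinc finger reader also called CIBZ. Its CPM in DNMT1 KO was 96.3, 99.8, 120.1 and 85.9. HCT116 values ran from 70.8 to 147.6 CPM with a median of 81.9. The DNMT1 KO values again lay inside the HCT116 range, at a log2 fold change of 0.02 (SE 0.26), and the log2 ratio was 0.43 in batch 1 but -0.39 in batch 2.

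In the MBD family, *MBD2* (ENSG00000134046; hg38 chr18:54151606-54224669, minus strand) encodes the NuRD subunit that binds methylated DNA. Its DNMT1 KO values were 31.6, 33.8, 37.4 and 33.5 CPM. Across HCT116 it ran from 31.9 to 54.9 CPM with a median of 43.2. All 4 DNMT1 KO libraries lay below that median, but only replicate 1 lay below every HCT116 library, and the log2 fold change was -0.35 (SE 0.23).

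*MBD3* (ENSG00000071655; hg38 chr19:1573596-1592865, minus strand) encodes the alternative subunit. It had 74.6, 54.4, 51.4 and 103.8 CPM in DNMT1 KO. The 6 HCT116 libraries lay from 34.6 to 93.1 CPM with a median of 51.1. DNMT1 KO replicate 4, the only library of batch 3, was the highest of all 10, and the log2 fold change was 0.30 (SE 0.30). It was 0.06 without that library and ran up to 0.52 with other single libraries left out, the highest being without HCT116 replicate 1. The log2 ratio was -0.32 in batch 1 and 0.06 in batch 2. Of its 7909 exon bases, 11.6% are shared with other genes in the annotation, so reads there could have been left uncounted.

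Because MBD2 and MBD3 occupy the same place in NuRD, the share of *MBD2* in the sum of both, per exon length, was compared. It was 37.1, 46.3, 50.3 and 31.0% in DNMT1 KO and ran from 45.1 to 57.6% in HCT116. Replicates 1 and 4 of DNMT1 KO lay below all HCT116 libraries, and replicates 2 and 3 lay among them. The means were 41.2 ± 8.77% (SD, n = 4) and 51.8 ± 5.09% (SD, n = 6), and the difference of -10.7 percentage points did not pass a two-sided exact permutation test over 210 splits (p = 0.0667, smallest possible 0.00952). The difference was -12.0 points without HCT116 replicate 1 and -13.7 points without DNMT1 KO replicate 3, each with an exact permutation p of 0.0476. Within batches 1 and 2 it was -5.86 points (exact permutation p = 0.5), and within batch 2 alone -4.81 points.

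*MBD1* (ENSG00000141644; hg38 chr18:50266882-50281774, minus strand) encodes a reader that works with a histone H3K9 methyltransferase. It had 44.1, 50.9, 41.4 and 57.2 CPM in DNMT1 KO. In HCT116 it ran from 41.1 to 70.3 CPM with a median of 57.2. The DNMT1 KO values lay inside the HCT116 range and at or below its median, with a log2 fold change of -0.19 (SE 0.22). It was 0.01 when libraries were scaled by totals alone.

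*MBD5* (ENSG00000204406; hg38 chr2:148021011-148516971, plus strand) had 22.1, 29.8, 28.0 and 20.9 CPM in DNMT1 KO. The HCT116 libraries ran from 11.6 to 30.8 CPM with a median of 17.2. All 4 DNMT1 KO libraries were above that median and below the highest HCT116 library, and the log2 fold change was 0.33 (SE 0.28). The log2 ratio was 0.32 in batch 1 and 0.015 in batch 2.

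*MBD6* (ENSG00000166987; hg38 chr12:57520710-57530148, plus strand) had 42.6, 48.0, 69.0 and 44.03 CPM in DNMT1 KO. HCT116 values ran from 21.0 to 90.5 CPM with a median of 30.6. The DNMT1 KO libraries sat between the lower 4 HCT116 libraries and the higher 2, at a log2 fold change of 0.16 (SE 0.39). The log2 ratio was 0.68 in batch 1 and -0.51 in batch 2.

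The readers were next compared within each line. The highest HCT116 library exceeded the lowest by 5.21-fold for *ZBTB4* and 4.32-fold for *MBD6*, but by 1.64-fold for *ZBTB33*. The median over genes with a mean of at least 5 CPM was 2.36-fold. In DNMT1 KO the same ratio was 1.47 for *ZBTB4*, 1.62 for *MBD6* and 1.92 for *ZBTB33*, beside a median of 1.67. Thus *ZBTB33* varied less than the median gene within HCT116, and *ZBTB4* and *MBD6* varied more.

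To set the line difference beside a difference between libraries of 1 line, HCT116 batch 4 (n = 3) was compared with HCT116 batches 1 and 2 (n = 3). In this comparison 8.03% of 18656 genes tested passed. *ZBTB4* was the only reader to pass: it was 140.0 ± 50.2 CPM (SD, n = 3) in batches 1 and 2 and 50.2 ± 12.6 CPM (SD, n = 3) in batch 4, a log2 difference of -1.51 (SE 0.35, adjusted p = 0.0198, edgeR). The 3 batch 4 libraries were the lowest of their line. *ZBTB4* no longer passed when any of replicates 2, 3, 7, 8 or 9 was left out, with adjusted p (edgeR) from 0.0526 to 0.124. Its log2 difference was then -1.70 to -1.17. Fewer genes passed in those fits, 46 to 273 higher and 187 to 575 lower, against 578 and 921 with all 6 libraries. Without replicate 1 it passed (-1.71, adjusted p = 0.00229, edgeR). *MBD6* differed by -1.24 (SE 0.40, adjusted p = 0.0706, edgeR) and passed with DESeq2 (-1.23, adjusted p = 0.0352). *MBD5* and *ZBTB38* differed by -0.75 and -0.64 and did not pass. *ZBTB33* differed by 0.05 (SE 0.30). Batch 4 also had the larger totals, and batch and depth cannot be told apart here.

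**Figure D2:**
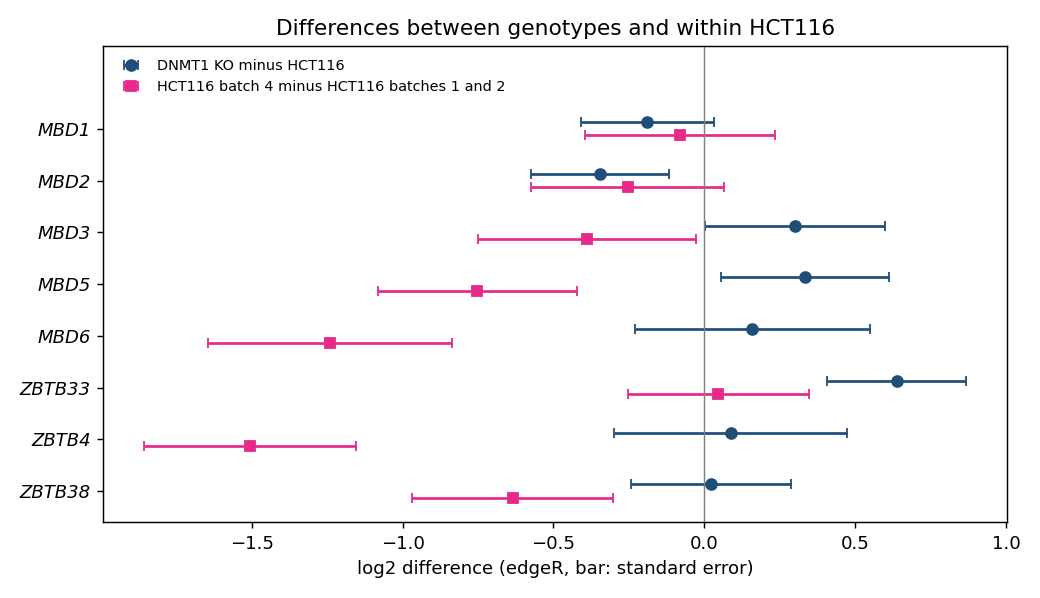
log2 difference (horizontal axis) of each reader gene between DNMT1 KO and HCT116 (circles) and between HCT116 batch 4 and HCT116 batches 1 and 2 (squares), with standard errors as bars. ZBTB33 shows 0.64 between the lines and 0.05 between HCT116 batches, and ZBTB4 shows 0.09 and -1.51.

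*MBD5*, *MBD6*, *ZBTB4* and *ZBTB38* shared a pattern across libraries, which is described here without a test because the points share libraries, batches and depth. The batch 2 libraries of HCT116, replicates 2 and 3, were the 2 highest of the 6 for each of these genes. *MBD5* had 26.6 and 30.8 CPM there, against at most 17.5 CPM in the other 4. *MBD6* had 74.5 and 90.5 CPM there, against at most 30.9 CPM. The same 2 libraries were the lowest of HCT116 for *MCM10*, a DNA replication gene, at 24.2 and 10.6 CPM, and for *CHAF1A*, a subunit of the replication-coupled chromatin assembly factor, at 36.2 and 27.1 CPM. This was not particular to replication genes. They were also the lowest for *HDAC1* (189.6 and 183.9 CPM) and *GSTP1* (172.9 and 171.0 CPM), and the highest for *SETDB1* (43.8 and 50.9 CPM). The part of this in the readers' values was not tested. Over all 10 libraries the Pearson correlation of log2(CPM + 0.5) was 0.93 between *MBD6* and *ZBTB38* and 0.88 between *MBD5* and *ZBTB4*, and over the 6 HCT116 libraries it was 0.95 for both pairs. Of all genes compared, 0.12% were at least as alike to *MBD6* as *ZBTB38* was, and 1.39% at least as alike to *MBD5* as *ZBTB4* was. For the remaining pairs of the 4 genes this share was 2.76 to 4.74%. *MBD2* and *MBD3* correlated at 0.84 in HCT116 and at 0.33 over all 10 libraries, where 26.7% of genes were at least as alike to *MBD2*.

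The genes most alike to each reader were taken from 11698 genes with a mean of at least 5 CPM, over all 10 libraries. For *ZBTB33* these were *KDM1B* (r = 0.98), which encodes a histone H3K4 demethylase, and *DDAH1* (r = 0.97). For *ZBTB4* they were *ZNF768* (0.98) and *CHRNB1* (0.97), and for *ZBTB38* they were *ZIC5* (0.98) and *SYNE1* (0.97). For *MBD6* they were *LPIN2* (0.98) and *XRRA1* (0.96). For *MBD5* they were the pseudogenes *RTN3P1* and *UBE2HP1* (both 0.97), whose counts could be shared with the parent genes. *MEX3D* (0.96) and *PAGR1* (0.95) were most alike to *MBD3*. *NSMAF* (0.90) and *INTS11* (0.88) were most alike to *MBD2*. *AKAP1* (0.86) and *USP36* (0.83) were most alike to *MBD1*.

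Levels were compared between readers per exon length, as RPKM on the TMM-scaled totals. In HCT116 the order of mean RPKM was *ZBTB4* (15.5 ± 9.64, SD, n = 6), *ZBTB33* (11.1 ± 1.85), *MBD6* (8.20 ± 5.25), *MBD1* (8.19 ± 1.70), *MBD2* (7.62 ± 1.88), *MBD3* (7.29 ± 2.74), *ZBTB38* (6.95 ± 2.49) and *MBD5* (0.825 ± 0.296). Ranges of neighbours in this order overlapped except between *ZBTB38* and *MBD5*. In DNMT1 KO *ZBTB33* came first (17.3 ± 4.45, SD, n = 4), ahead of *ZBTB4* (16.5 ± 2.79), and *MBD5* was again last (1.04 ± 0.180). There the ranges did not overlap between *ZBTB4* and *MBD6* or between *MBD2* and *MBD5*. The length used is that of all annotated exons of a gene, 24256 bases for *MBD5* and 5313 for *ZBTB33*, so genes with many alternative exons come out low.

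**Figure D3:**
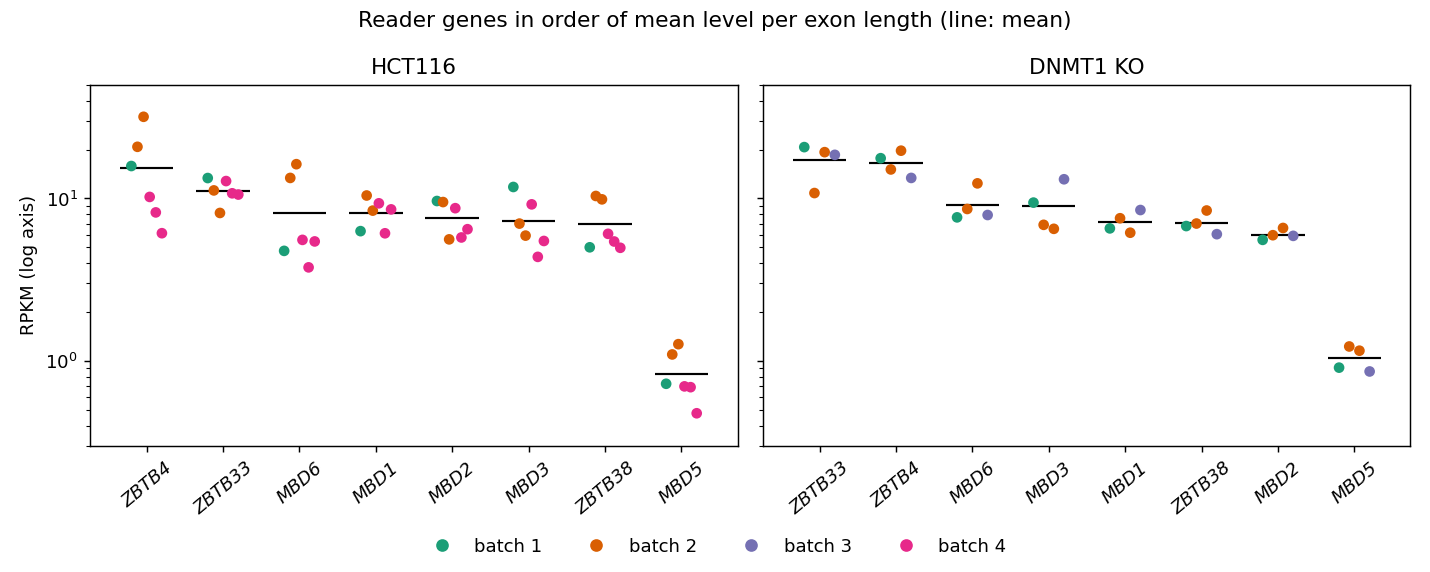
RPKM (log axis) of the reader genes in HCT116 (left) and DNMT1 KO (right), in order of mean level within each line. Points are libraries coloured by batch and lines are means. MBD5 lies about 1 RPKM in both lines, below every library of the other readers.

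The complexes in which the readers work were examined through 4 lists with 35 genes in all, of which 34 were tested. *ASXL3*, at most 0.444 CPM in any library, was not tested. Of the 34, 3 passed higher and 2 lower in DNMT1 KO, beside 8.45% and 7.61% of all genes, and the median log2 fold change was 0.10. The higher genes were *ATF7IP*, *ATF7IP2* and *KDM1B*, and the lower genes were *HDAC1* and *SIN3B*. These counts change with the batches used. With batch as a term 1 passed higher and 4 lower, beside 1767 and 1670 of 19279 genes tested (edgeR). Within batch 2 alone 0 passed in either direction, but only 815 and 798 of 19565 genes passed in that fit (edgeR).

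Of 12 NuRD genes 1 passed, lower in DNMT1 KO, beside 7.61% of all genes, and the list's median log2 fold change was -0.14. *HDAC1* (ENSG00000116478), which encodes a histone deacetylase of NuRD and of SIN3 complexes, had 101.3, 128.7, 86.3 and 89.2 CPM in DNMT1 KO. Across HCT116 it ran from 183.9 to 317.1 CPM with a median of 264.7. No DNMT1 KO library reached the lowest HCT116 library, and the log2 fold change was -1.31 (SE 0.24, adjusted p = 0.00133, edgeR). The log2 ratio was -1.64 in batch 1 and -0.82 in batch 2, and the gene did not pass within batch 2 alone (-0.79, adjusted p = 0.228, edgeR). The other deacetylase of the complex, *HDAC2*, was at -0.61 (SE 0.20, adjusted p = 0.0502, edgeR) and *MTA1* at -0.75 (SE 0.26, adjusted p = 0.0630, edgeR), neither of which passed. For both, all 4 DNMT1 KO libraries lay below every HCT116 library, while 15.2% of genes tested had ranges that did not overlap. Of the 12 NuRD genes 4 had an unadjusted p under 0.05, beside 5327 of 19279 genes (edgeR). *CHD4* and *CDK2AP1* share 53.5% and 24.2% of their exon bases with other genes and are uncertain for that reason.

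Of the 5 MBD1 partners 2 passed higher, beside 8.45% of all genes, and this list of 5 was not tested as a set. They were *ATF7IP* and *ATF7IP2*, which encode paralogous partners of the H3K9 methyltransferase SETDB1. *ATF7IP* had 142.2, 127.3, 214.8 and 126.4 CPM in DNMT1 KO and from 61.6 to 108.5 CPM in HCT116. The ranges did not overlap, and the log2 fold change was 0.83 (SE 0.23, adjusted p = 0.0244, edgeR). *ATF7IP2* was lower in level, with 15.3, 9.76, 18.2 and 13.2 CPM in DNMT1 KO and from 4.49 to 11.2 CPM in HCT116, and its log2 fold change was 1.06 (SE 0.30, adjusted p = 0.0265, edgeR). *SETDB1* itself was at 0.12 (SE 0.22) and did not pass. The sign of both genes was kept under all 23 alternatives, but *ATF7IP* passed in 15 of them and *ATF7IP2* in 17. Without DNMT1 KO replicate 1 or 3 neither passed (0.87 and 0.65 for *ATF7IP*, 1.03 and 0.94 for *ATF7IP2*), and *ATF7IP2* also did not without HCT116 replicate 7 (1.00) or DNMT1 KO replicate 4 (1.08). With batch as a term *ATF7IP* was at 0.79 and did not pass (adjusted p = 0.0807, edgeR).

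Of the 8 PR-DUB genes tested 1 passed higher, beside 8.45% of all genes. *KDM1B* had 70.4, 32.6, 81.7 and 62.0 CPM in DNMT1 KO and from 16.1 to 42.6 CPM in HCT116. Replicate 2 of DNMT1 KO lay inside the HCT116 range, as it did for *ZBTB33*, and the log2 fold change was 0.94 (SE 0.30, adjusted p = 0.0442, edgeR). Of the 9 partners of the zinc finger readers 1 passed, lower in DNMT1 KO, beside 7.61% of all genes. This was *SIN3B*, a scaffold of a histone deacetylase complex, which fell by 0.80 on the log2 scale (SE 0.26, adjusted p = 0.0494, edgeR). It had 25.1, 30.1, 40.9 and 35.2 CPM in DNMT1 KO and from 37.5 to 74.2 CPM in HCT116, so the ranges overlapped. *SIN3B* passed under 8 of the 23 alternatives and was lost without any library but HCT116 replicates 1 and 8, at log2 fold changes from -0.90 to -0.67. *KDM1B* passed under 13, and was lost without HCT116 replicate 8 or 9 (0.92 and 0.91) or DNMT1 KO replicate 1, 3 or 4 (0.89, 0.81 and 0.94). With batch as a term it was at 1.02 and did not pass (adjusted p = 0.0658, edgeR).

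**Figure D4:**
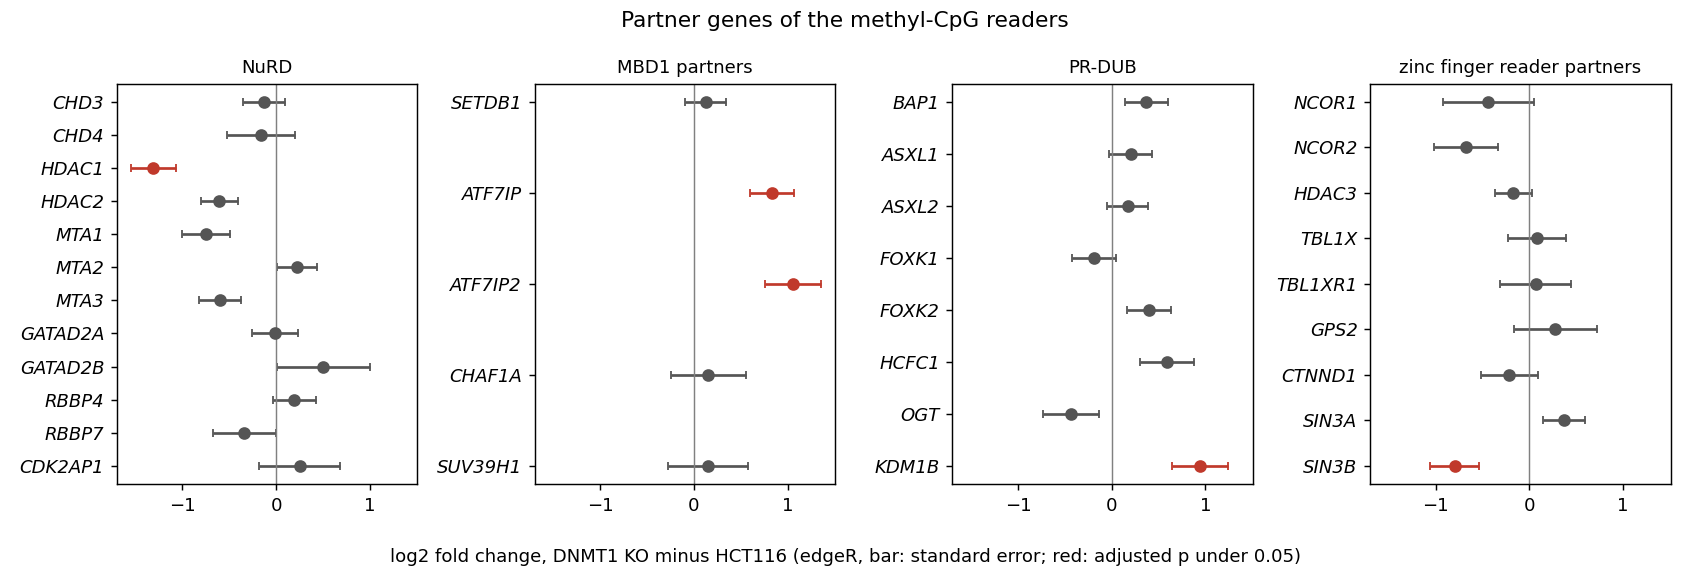
log2 fold change (horizontal axis, DNMT1 KO minus HCT116) of the genes tested in the 4 partner lists, with standard errors as bars. Red points passed the test (HDAC1, ATF7IP, ATF7IP2, KDM1B and SIN3B) and grey points did not.

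A further list held 5 genes that have been described as repressed by a reader, of which 0 passed higher and 2 passed lower in DNMT1 KO (edgeR), beside 8.45% and 7.61% of all genes. The list's median log2 fold change was 0.01. *CDKN1A* (hg38 chr6:36676460-36687339), the gene of the cyclin-dependent kinase inhibitor p21 and a described target of ZBTB4, had 81.0, 70.3, 176.0 and 51.3 CPM in DNMT1 KO. The 6 HCT116 libraries lay from 230.1 to 689.8 CPM with a median of 480.8. No DNMT1 KO library reached the HCT116 range, and the log2 fold change was -2.28 (SE 0.40, adjusted p = 0.000855, edgeR). *MMP7* (hg38 chr11:102520508-102530750), a matrix metalloproteinase gene described as a target of Kaiso, was low in HCT116, from 0.361 to 1.46 CPM with 273 counts in all. It had 0 counts in all 4 DNMT1 KO libraries, which is at least 50-fold lower when set against a floor of 3 counts over the group, and the floor covers counting error only. If the mostly even low counts of 9 libraries mean that mates were counted separately, which was not tested, halving those counts gives at least 29-fold. *GSTP1*, *MCM10* and *MTA2* did not pass, with log2 fold changes of 0.01, 0.13 and 0.22.

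The sequence before the start of these genes was read from RefSeq (GRCh38.p14) to show how rich in CpG the readers' own promoters are. In the 250 bases before the RefSeq start, *ZBTB33* has 24 CpG, *ZBTB4* 27, *MBD3* 32, *MBD6* 28, *MBD1* 23 and *MBD2* 21. The median over 35116 such windows is 11, with quartiles of 3 and 23. *MBD5* has 17 and 14 in its 2 windows, and the 10 windows of *ZBTB38* have between 0 and 29. The *MBD6* window (chr12:57522574-57522823) lies inside the gene model used for counting. So do the *ZBTB38* windows other than chr3:141323936-141324185, so these do not precede the gene as counted. Shown are the reader with the smallest p, the reader that differed most within HCT116, the NuRD gene that fell and *MMP7*, which has 3. Each is given 5′ to 3′ on the strand of its gene, without bases inside the gene model of the tables, and with CG in capitals, at chrX:120250562-120250751 (plus), chr17:7484264-7484499 (minus), chr1:32291833-32292082 (plus) and chr11:102530751-102530997 (minus). The stretches shown therefore hold 190 bases with 16 CpG for *ZBTB33*, 236 with 26 for *ZBTB4*, 250 with 21 for *HDAC1* and 247 with 3 for *MMP7*.
ZBTB33: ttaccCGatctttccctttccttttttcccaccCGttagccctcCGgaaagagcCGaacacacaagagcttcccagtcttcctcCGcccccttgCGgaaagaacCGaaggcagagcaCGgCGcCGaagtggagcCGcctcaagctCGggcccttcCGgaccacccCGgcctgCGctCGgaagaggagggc
ZBTB4: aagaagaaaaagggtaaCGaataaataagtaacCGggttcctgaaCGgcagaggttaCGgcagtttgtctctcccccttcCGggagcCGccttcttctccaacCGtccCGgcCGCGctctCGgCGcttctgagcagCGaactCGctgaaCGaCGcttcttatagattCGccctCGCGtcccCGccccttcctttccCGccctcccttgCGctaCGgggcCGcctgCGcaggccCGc
HDAC1: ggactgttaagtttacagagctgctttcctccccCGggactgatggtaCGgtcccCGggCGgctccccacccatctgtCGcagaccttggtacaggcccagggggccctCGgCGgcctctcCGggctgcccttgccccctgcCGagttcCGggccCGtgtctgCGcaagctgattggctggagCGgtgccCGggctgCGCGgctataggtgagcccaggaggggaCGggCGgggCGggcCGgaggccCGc
MMP7: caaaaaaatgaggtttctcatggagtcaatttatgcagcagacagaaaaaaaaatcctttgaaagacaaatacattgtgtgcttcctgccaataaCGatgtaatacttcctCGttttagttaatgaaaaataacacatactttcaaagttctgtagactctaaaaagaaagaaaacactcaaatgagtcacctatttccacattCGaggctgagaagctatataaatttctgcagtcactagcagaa

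Kaiso is also known to bind the unmethylated sequence TCCTGCNA. Searched on both strands, it occurs in 3.74% of all windows. It is in 1 of the 18 windows of the readers, a window of *ZBTB38*. Among the partner and target genes it is in that of *MMP7*, which fell, and in 1 of the windows of *ATF7IP*, which rose. In the *MMP7* stretch it is in capitals here.
MMP7: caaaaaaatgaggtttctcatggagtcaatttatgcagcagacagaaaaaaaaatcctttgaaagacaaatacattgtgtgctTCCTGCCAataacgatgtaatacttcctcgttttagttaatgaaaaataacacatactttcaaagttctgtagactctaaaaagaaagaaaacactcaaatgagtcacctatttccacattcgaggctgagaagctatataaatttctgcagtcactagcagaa

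The sequence CGCG, 2 adjoining CpG, occurs in 46.4% of all windows and in 7 windows of the readers, 1 for each reader but *MBD5*. For *ZBTB33* it is not within the stretch shown above, which leaves out 60 bases of the window. These matches describe the letters only.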

How the data were processed

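The authors made stranded poly(A) libraries (TruSeq), sequenced paired ends on a NovaSeq, trimmed reads with Trim Galore 0.4.1 and, per the labels and methods, aligned them unspliced to hg38 with bowtie2, so reads over splice junctions are lost. Alignments with a mapping quality under 10 were removed, and exonic reads were summed per gene with featureCounts. No strand option is named, and the annotation release is not given in the sources used here. What was deposited for each library is a table of raw gene counts. The summed exon length used for RPKM is a deposited column of another kind. Low counts (1 to 10) were even for 64.4 to 70.0% of genes in 9 libraries and for 39.9% in DNMT1 KO replicate 4, so mates may have been counted separately in the 9, and an alternative with their counts halved was run. Intervals of counts cover counting error only.

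Counts were tested in R 4.3.3 with edgeR 4.0.16 (filterByExpr, TMM, glmQLFit and glmQLFTest, group alone, two-sided), adjusted by Benjamini-Hochberg over all genes tested. A gene passed at an adjusted p under 0.05. The test was checked on simulated data. Standard errors were derived from the F statistic. Alternatives used DESeq2 1.42.0, other scalings and filters, batches, a replicate block, and libraries left out. Groups and batches come from the labels. The study describes its libraries as independent cultures of each line. A further 3 tables with no sample in the labels were not used.

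The members and lists were chosen with earlier results of these data known. All 8 readers are named, with DNMT1, each list's genes that passed (up to 5), and, for each reader, the 2 genes with the highest correlation among those with a mean of at least 5 CPM. *HDAC2*, *MTA1*, *SETDB1*, *CHAF1A*, *CHD4*, *CDK2AP1* and the remaining genes of the target list were named after their values were seen.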

Additional observations from a re-analysis of the deposited data

How the results depend on the processing

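Values here are log2 fold changes of DNMT1 KO against HCT116 unless stated. *MBD2*, *MBD5* and *ZBTB33* kept their direction under all 23 alternatives. *ZBTB33* passed with library totals alone (0.85) and ran from 0.56 to 0.81 with single libraries left out, with adjusted p over all alternatives from 0.014 to 0.42 (edgeR, DESeq2). *MBD1* turned to 0.0139 with library totals alone and 0.0285 in batches 1, 3 and 4. Given a batch term over every library, a batch term within batches 1 and 2, and the replicate block, *MBD3* turned to -0.0716, -0.0701 and -0.0671, *MBD6* to -0.11, -0.108 and -0.119, *ZBTB4* to -0.35, -0.345 and -0.332, and *ZBTB38* to -0.117, -0.116 and -0.119. In batch 2 alone and in batches 1, 2 and 3, *MBD6* was -0.494 and -0.328, *ZBTB4* -0.595 and -0.473, and *ZBTB38* -0.387 and -0.255. Without the filter *ZBTB38* was -0.00568. With single libraries left out, *MBD6* ran from -0.0137 to 0.504, *ZBTB4* from -0.076 to 0.459 and *ZBTB38* from -0.0571 to 0.193. Batches 1, 2 and 3, batches 1, 3 and 4 and the halved *MMP7* bound were chosen after seeing the data. The cause of these changes was not tested.

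Between HCT116 batches, with single libraries left out, the log2 difference ran from -0.251 to 0.0935 for *MBD1*, -0.12 to 0.219 for *ZBTB33*, -0.949 to -0.561 for *MBD5*, -1.61 to -0.887 for *MBD6*, -1.71 to -1.17 for *ZBTB4* and -0.90 to -0.472 for *ZBTB38*. *MBD6* was -1.23 with DESeq2 (adjusted p = 0.0352). Without HCT116 replicate 1, *MBD5*, *MBD6* and *ZBTB38* passed (adjusted p = 0.0412, 0.00207 and 0.0481, edgeR), as did *ZBTB4* (adjusted p = 0.00229, edgeR). In that fit 1863 genes passed higher and 1876 lower of 20014 tested, against 578 and 921 of 18656 with all 6 libraries. The *MBD2* share differed by -13.7 to -7.25 points with single libraries left out and by -10.0 to -4.81 points otherwise.

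Partner genes passing higher numbered 3, and 1 under a batch term (all libraries, or batches 1 and 2), with the replicate block, in batches 1, 2 and 3 and in batches 1, 3 and 4. They numbered 0 in batch 2 alone, and 0 to 3 with single libraries left out. Those passing lower numbered 2, and 1 with RLE size factors, library totals alone, no filter, at least 10 counts in every library, halved counts and batches 1, 3 and 4. They numbered 4 with the likelihood ratio test, and under a batch term (all libraries, or batches 1 and 2), 5 in batches 1, 2 and 3, 0 in batch 2 alone, and 1 to 3 with single libraries left out. Of all genes 1630 and 1468 passed higher and lower, against 914 and 926 with at least 10 counts in every library, which gave no value for *MMP7*, and 815 and 798 in batch 2 alone. With library totals alone the split was 2303 and 1089. Under a batch term it was 1767 and 1670 with all libraries, and 1457 and 1439 within batches 1 and 2. The likelihood ratio test gave 1914 and 1783. Batches 1, 2 and 3 gave 1493 and 1638, and batches 1, 3 and 4 gave 1193 and 965.

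Deviations of same-numbered libraries correlated at 0.547, -0.266 and 0.375, so the numbers were not taken as pairing. With the replicate block *HDAC1* was -1.1 (adjusted p = 0.0504, edgeR), and 1245 and 1247 genes passed. The readers had at least 567 counts in every library.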
